A study of Homo sapiens with 8 samples.

Results

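The urokinase system is a cell-surface protease system, and 3 of the 4 genes described here belong to it or act on it. *PLAU* encodes urokinase (uPA), the secreted serine protease that turns plasminogen into plasmin, *PLAUR* encodes its receptor uPAR, and *SERPINE2* encodes protease nexin 1, a serpin that inhibits urokinase, thrombin and plasmin. *PRSS23* encodes a secreted serine protease whose substrates are less well known. The 4 genes were taken by their gene symbols from 19475 genes with mRNA values and from the m6A peak lists of the same cells, where they carried 7 of 22001 merged regions. The members were chosen by their measured mRNA difference between *F. nucleatum*-treated and Control cells and by the presence and position of their m6A peaks, so both are given below as descriptions without a test.

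HCT116, a human colorectal carcinoma cell line with epithelial features, was treated with PBS (Control) or with the bacterium *Fusobacterium nucleatum* for 2 h at 100 bacteria per cell. The question was how the bacterium changes N6-methyladenosine (m6A), the most abundant internal mark of mRNA. Each treatment had 2 biological replicates. Each replicate gave an input library of fragmented polyadenylated RNA and a library of fragments pulled down with an antibody to m6A (IP), so there were 8 libraries in 4 groups. An m6A peak is a stretch of exons where an IP library exceeded its input, and each of the 4 peak lists was taken to compare the IP and input libraries of one replicate, since the labels name it for both.

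In the system as it is known, urokinase is made as an inactive proenzyme, binds uPAR on the cell surface and there cleaves plasminogen, and plasmin in turn activates more proenzyme. Serpins end the activity, and the inhibited complex is taken up through LRP1, a large endocytic receptor. The system is known for its part in matrix breakdown and cell migration in colorectal tumours, in which tumour and stromal cells both supply its members.

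mRNA was measured in FPKM, fragments per kilobase of gene and per fixed number of fragments in the library, a scale that corrects for gene length, so levels of different genes can be set side by side. The labelled cell type was checked first: 8 of 9 epithelial markers were at a mean of 1 FPKM or more, with *KRT8* at 1941 to 2286 FPKM and *EPCAM* at 162 to 184 FPKM, while *VIL1* was at 0 to 0.0180 FPKM. The summed level of the 9 was 5295 and 4934 FPKM in the Control libraries, against 4530 and 4900 FPKM in the treated libraries. Of 10 markers of immune, stromal and endothelial cells, 8 had a mean under 1 FPKM, and the summed level of the 10 was 11.8 to 15 FPKM in all 4 libraries, almost all of it *CD68* and *COL1A1*. Between 14566 and 14816 genes were above 0 FPKM in a library, and the peak lists held 17198 (Control 1), 18149 (Control 2), 18365 (*F. nucleatum* 1) and 17039 (*F. nucleatum* 2) peaks. The number of reads was unknown, and the relative depth of the inputs could be estimated only weakly from the lowest FPKM values, at 1.12, 1.24 and 0.913 times that of Control 1 for Control 2, *F. nucleatum* 1 and *F. nucleatum* 2.

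The mRNA of the 4 genes is described first, in the order of their roles, with 4 values a gene that belong to Control 1, Control 2, *F. nucleatum* 1 and *F. nucleatum* 2. All 4 genes were higher in both treated libraries than in both Control libraries, in a table in which 26.1% of 11088 genes whose mean reached 1 FPKM were separated that way. That separation was part of what chose the genes, so nothing is read from the count. A level measured in a whole culture cannot tell more mRNA per cell apart from more cells that express the gene.

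*PLAU*, the protease, stood at 27.8, 25.4, 80.7 and 85.9 FPKM. The treated libraries lay far above the Control libraries, and replicates differed by at most 1.10-fold. The mean was 26.6 ± 1.71 FPKM in Control and 83.3 ± 3.70 FPKM in *F. nucleatum* (SD, n = 2), a ratio of 3.13. On the log2(FPKM + 1) scale the difference was 1.61, the 15th highest of the 11088 genes.

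*PLAUR*, the receptor, stood at 41.1, 42.9, 76.9 and 80.1 FPKM, again with a wide gap between the treatments. Its mean was 42.0 ± 1.28 FPKM in Control and 78.5 ± 2.24 FPKM in *F. nucleatum* (SD, n = 2), a ratio of 1.87. The log2 difference was 0.89 and ranked 56th. In Control the receptor mRNA was above that of the protease in both libraries, and in *F. nucleatum* the protease was above the receptor in both.

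*SERPINE2*, the inhibitor, stood at 25.4, 38.3, 44.1 and 44.8 FPKM. The Control replicates differed from each other by 1.51-fold, and the lowest treated library was only 1.15 times the highest Control library. Its mean was 31.9 ± 9.19 FPKM in Control and 44.4 ± 0.466 FPKM in *F. nucleatum* (SD, n = 2), a ratio of 1.39. The log2 difference of 0.50 ranked 187th, and it was 0.79 without Control 2 and 0.21 without Control 1, so one Control library moved it by over 1.5 times.

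*PRSS23* was by far the least abundant, at 0.824, 0.597, 2.74 and 2.78 FPKM. Both Control libraries lay under 1 FPKM, so the gene passed the filter on low values only through its treated libraries. Its mean was 0.710 ± 0.160 FPKM in Control and 2.76 ± 0.0269 FPKM in *F. nucleatum* (SD, n = 2), a ratio of 3.89 that was the highest of the 4. The log2 difference was 1.14 and ranked 32nd with 1 FPKM added to each value, and was 1.83 with 0.1 FPKM added. Among the 4 genes the order of levels in Control was *PLAUR*, *SERPINE2*, *PLAU* and *PRSS23*, where the ranges of *PLAU* and *SERPINE2* overlapped. In *F. nucleatum* the order was *PLAU*, *PLAUR*, *SERPINE2* and *PRSS23*, each set apart from the next in both libraries.

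**Figure D1:**
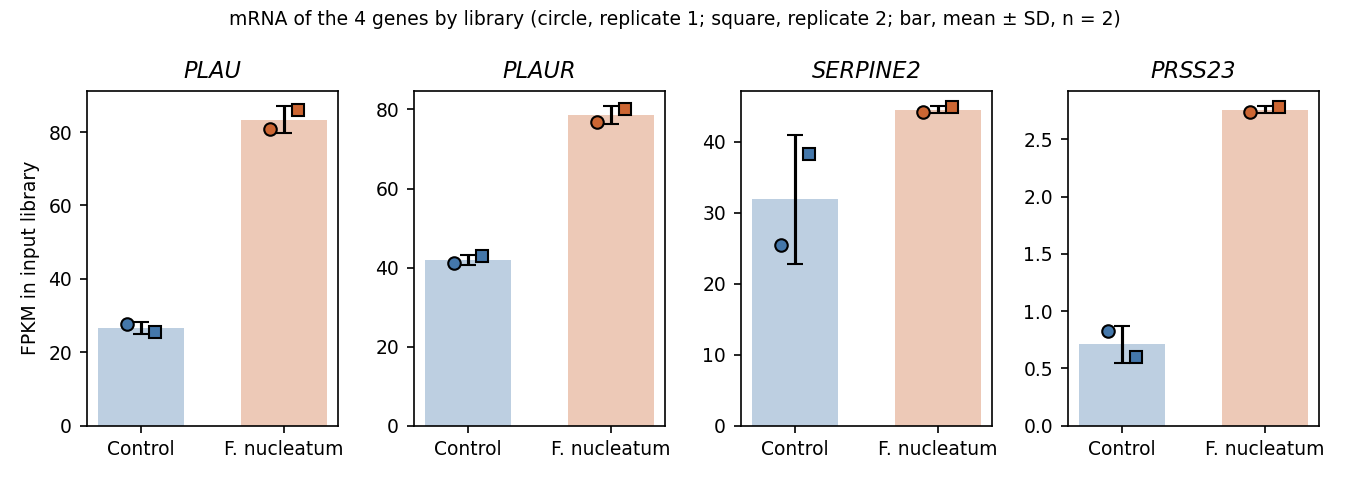
FPKM of *PLAU*, *PLAUR*, *SERPINE2* and *PRSS23* in the input libraries of Control (blue) and *F. nucleatum* (orange). Points are libraries, bars are means and whiskers are SD (n = 2); the treated points lie above the Control points in each panel, with the smallest gap for *SERPINE2* (38.3 against 44.1 FPKM), and the vertical axes differ.

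For each gene the 3 genes with the most similar pattern over the 4 input libraries were found, by the distance between log2(FPKM + 1) values centred on each gene's mean. The distance uses only 4 libraries and carries no test. The 1 FPKM added to each value shrinks the differences of low genes, so such a gene can lie near one with a smaller ratio. Nearest to *PLAU* were *JUN* (distance 0.163), a subunit of the transcription factor AP-1, *TNFAIP3* (0.164), which encodes the NF-κB inhibitor A20, and *ICAM1* (0.216), an adhesion molecule. *JUN* stood at 16.9, 17.6, 51.7 and 51.7 FPKM, and so differed by about the same ratio as *PLAU* at a lower level. *TNFAIP3* (0.816, 0.838, 3.93 and 4.89 FPKM) and *ICAM1* (1.92, 1.98, 9.15 and 8.30 FPKM) differed by larger ratios than *PLAU*.

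Nearest to *PLAUR* were *ZFP36* (0.0540), which encodes a protein that promotes mRNA decay, *EFNA1* (0.0741), an ephrin ligand, and *CYP1A1* (0.0893), a target of the aryl hydrocarbon receptor. *ZFP36* was at 49, 48.9, 88.7 and 90.9 FPKM. *CYP1A1*, at 1.12, 1.27, 2.73 and 3.19 FPKM, differed by a larger ratio than *PLAUR*. Nearest to *PRSS23* were *TNFAIP2* (0.0319), *DUSP5* (0.0446), a phosphatase of ERK, and *CDV3* (0.0804). *DUSP5* stood at 91.3, 81.6, 187 and 186 FPKM, a log2 difference of 1.10 on the same scale. The nearness of these 3 genes depends on the 1 FPKM added to each value, which shrinks the difference of *PRSS23* far more than that of a gene at the level of *DUSP5*.

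The pattern of *SERPINE2* was another one. Its nearest genes were *CITED2* (0.0294), a transcriptional coregulator, *MPP2* (0.0593) and *RGP1* (0.0614). *CITED2* stood at 9.43, 14.3, 16.6 and 16.6 FPKM, so Control 1 was low and Control 2 was near the treated libraries, as for *SERPINE2* itself.

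The other genes of the system were then counted from lists of related genes, fitted with limma over all 11088 genes. In that fit 74 genes (0.667%) rose and 15 (0.135%) fell with *F. nucleatum* at an adjusted p under 0.05, and the median log2 difference of all genes was 0.014. For 17 other genes of the plasminogen system that were counted, 10 were tested, none passed the threshold in limma and 1 had an unadjusted p under 0.05. The median log2 difference of the 10 was 0.08.

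*PLAT*, the tissue-type activator, was at 2.71, 5.37, 3.16 and 5.23 FPKM, and the treatments overlapped (log2 difference 0.07, limma adjusted p 0.947). *PLG*, which encodes plasminogen, was listed at 0 in all 4 libraries, and *SERPINB2*, which encodes another urokinase inhibitor, was at 0 to 0.194 FPKM. The plasminogen-binding complex of *ANXA2* and *S100A10* was abundant: *ANXA2* was at 1072 to 1209 FPKM (log2 difference 0.09, limma adjusted p 0.498) and *S100A10* at 128 to 165 FPKM (limma adjusted p 0.995). *LRP1* was at 0.783 to 0.983 FPKM, under the filter. *SERPINA5*, another serpin that inhibits urokinase, was at 1.02, 0.680, 1.28 and 1.26 FPKM (log2 difference 0.30, limma adjusted p 0.379). *LRPAP1*, which encodes a chaperone of LRP1, was at 11.7, 12.3, 9.89 and 10.7 FPKM (log2 difference -0.21, limma adjusted p 0.353).

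For 23 serpins besides *SERPINE2* that were counted, 10 were tested, none passed the threshold in limma and 3 had an unadjusted p under 0.05. The median of the 10 was 0.23, against 0.014 over all genes, and 6 of the 10 had both treated libraries above both Control libraries, beside 26.1% of all genes. The same count was 3 of 10 in the plasminogen system, 5 of 17 serine proteases and 4 of 13 matrix proteases. It was 1 of 10 surface partners of uPAR and 2 of 5 genes with its three-finger domain. *SERPINB9*, which encodes the inhibitor of granzyme B, had values of 11.7, 10.4, 14.9 and 13.8 FPKM (log2 difference 0.35, limma adjusted p 0.224). The median and the counts describe these genes in these libraries and were not tested as a group.

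No serine protease passed the test among 17 tested of 42 relatives of *PLAU* and *PRSS23*, 4 of them had an unadjusted p under 0.05, and their median was -0.01. The largest log2 differences were -0.41 for the kallikrein *KLK10* (9.83, 8.68, 6.89 and 6.50 FPKM, limma adjusted p 0.191) and 0.35 for the thymus-specific protease *PRSS16* (1.81, 1.83, 2.68 and 2.5 FPKM, limma adjusted p 0.234), which the neutrophil protease *PRTN3* equalled to 2 decimals (limma adjusted p 0.437). The matrix protease list held 25 genes, of which 24 had mRNA values and 13 were tested. None passed the threshold in limma and 2 had an unadjusted p under 0.05. *MMP7* (matrilysin) was at 1.69, 1.02, 0.738 and 0.781 FPKM (limma adjusted p 0.360) and *MMP11* (stromelysin 3) at 1.99 to 2.94 FPKM (limma adjusted p 0.523).

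The surface partners of uPAR, such as integrins and growth factor receptors, held 10 tested genes of 15. None passed the threshold in limma and none had an unadjusted p under 0.05, and their log2 differences lay between -0.10 and 0.17. The largest were those of the integrin subunits *ITGAV* (0.17, limma adjusted p 0.536) and *ITGA6* (0.12, limma adjusted p 0.526). Of 11 genes that share the three-finger domain of uPAR, 5 were tested, none passed the threshold in limma and 1 had an unadjusted p under 0.05. *LYPD3* had a log2 difference of 0.32 (limma adjusted p 0.317) and *LYPD6* of 0.25 (limma adjusted p 0.439).

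The m6A peaks of the 4 genes are described next, in coordinates of GRCh37 (hg19). Peaks of the 4 lists on one strand were merged into a region where their exon blocks shared at least 1 base. Of 22001 regions over all genes, 51.5% had a peak in every list, 2.64% only in both Control lists and 2.38% only in both *F. nucleatum* lists. The 4 genes had 7 regions: 3 with a peak in every list, 1 only in both Control lists, none only in both *F. nucleatum* lists, and 3 with another mixture. Control 1 and Control 2 each held 7 of their peaks, *F. nucleatum* 1 held 5 and *F. nucleatum* 2 held 3. These counts include a region of *PLAUR* that was split in Control 1, and weak *PRSS23* peaks where that gene overlaps *FZD4*, both described below. The p-value of a peak depends on how many reads cover it as well as on how far IP exceeds input, so p-values of genes whose mRNA differs between treatments do not measure the degree of methylation.

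m6A is placed by the METTL3 complex mostly in the sequence context DRACH, of which GGAC is the most used core, and it clusters around stop codons and in long internal exons. The short sequences below show where GGAC lies in the regions that carry the results, with the GGAC in capitals, written 5′ to 3′ along the mRNA.

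*PLAU* (chromosome 10, plus strand, 75668935 to 75677254) had a single region, at chr10:75675073-75676720, which joined the last part of the coding sequence (CDS) to the 3′UTR across one intron. The Control peaks had p 3.2e-44 and 1.6e-43, and the treated peaks had p 1e-132 and 2.5e-97. Both Control peaks had the same ends, with 233 bases of CDS and 367 of 3′UTR, and each treated peak reached a little further at one end. All 4 peaks shared 600 bases. The CDS part of the Control peaks, from chr10:75675102-75676323 without the intron, was 57.1% G or C, held 2 GGAC and ended with the stop codon:

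PLAU coding part: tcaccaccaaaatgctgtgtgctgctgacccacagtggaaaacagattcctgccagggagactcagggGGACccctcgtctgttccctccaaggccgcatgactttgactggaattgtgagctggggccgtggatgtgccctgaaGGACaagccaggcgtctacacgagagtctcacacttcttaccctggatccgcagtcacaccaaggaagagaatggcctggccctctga

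The first GGAC, with its A at base 1252 of the 2343-base mRNA, lay within the codons of the loop that holds the catalytic serine of urokinase (bases 1238 to 1255). The remaining GGAC of the region lay in the 3′UTR, 264 bases past the stop codon, with its A at position 75676587. It is shown because it is the one followed by T, the pentamer most often methylated:

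PLAU 3′UTR site: gtctttttctGGACtgaagcctgca

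The 3 GGAC in 600 bases gave 5.00 per kb, and 57.6% and 57.3% of peaks of like length (80% to 125% of its own) in the Control lists had as many or more. Over the whole mRNA there were 8 GGAC, 3.41 per kb.

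*PLAUR* (chromosome 19, minus strand, 44150247 to 44174699) had a region at each end. The region at its 3′ end, at chr19:44150277-44153240, was 1 peak in Control 2 (p 7.9e-44), *F. nucleatum* 1 (p 1e-118) and *F. nucleatum* 2 (p 2e-92). In Control 1 it was split into a peak of 356 bases around the stop codon (p 6.3e-46) and one of 208 bases (p 2.7e-06) in an alternative last exon outside the canonical transcript, where the other 3 lists had a single peak spanning both. The canonical transcript is the one that the annotation takes as the gene's main form. Sites on each side of the stop codon are shown, with the A 5 bases before and 40 bases past its end:

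PLAUR end of coding sequence: actctcctctGGACctaaacctgaa
PLAUR 3′UTR site: tggatccgggGGACccctttgccct

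The region at the 5′ end of *PLAUR*, at chr19:44169589-44174321, was found in 3 lists, Control 1 (p 2e-14), Control 2 (p 1.8e-05) and *F. nucleatum* 1 (p 5.6e-06), and *F. nucleatum* 2 had no peak there. The mRNA of *PLAUR* was higher in *F. nucleatum* 2 than in either Control library. That replicate also had the shortest peak list (17039 peaks) and the lowest estimated input depth (0.913 times that of Control 1). The reason for the missing peak was not tested. The Control 1 peak covered the first 238 bases of the mRNA, with the whole 5′UTR and 189 coding bases. The 119 bases common to the 3 peaks lay in the CDS, at chr19:44171740-44174232 without the intron, were 63.9% G or C and held 3 GGAC close together:

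PLAUR first coding part: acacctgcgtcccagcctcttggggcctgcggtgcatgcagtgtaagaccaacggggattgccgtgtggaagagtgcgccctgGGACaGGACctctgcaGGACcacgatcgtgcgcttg

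The 3 or 4 GGAC of the 5′ region, at 16.8 to 20.1 per kb, were matched or exceeded by 5.03%, 6.31% and 8.15% of peaks of like length in Control 1, Control 2 and *F. nucleatum* 1, while GGAC over all peaks stood at 5.13 to 5.37 per kb. The G or C content of the 3 peaks was 62.4% to 66.9%, against a median of 50% to 51.8% over all peaks of a list.

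*PRSS23* (chromosome 11, plus strand, 86502101 to 86663952) had the longest region of the 4 genes. The 4 lists shared 1019 bases, and each peak covered most of the CDS of 1152 bases, with p 2e-22 and 5e-29 in the Control lists, against 5e-32 and 6.3e-32 in the treated lists. The Control peaks and that of *F. nucleatum* 1 lay wholly in the CDS. The peak of *F. nucleatum* 2 covered all of the CDS and added 53 bases of 5′UTR and 52 of 3′UTR, reaching into the first exon, so that the region ran from 86511654 to 86519889.

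The p-values were set beside those of other genes with as little mRNA. Of 1780 genes within 2-fold of its Control mean of 0.710 FPKM, 40.7% had a peak in both Control lists, and 1.63% and 1.18% had a lowest p at or below that of *PRSS23* in Control 1 and Control 2. For *PLAU* the shares were 35.4% and 38.2%, and for *PLAUR* 37.1% and 39.3%, of genes within 2-fold of their own Control means. Genes were matched on FPKM alone, not on length, and those without a peak stayed in the total. At a like FPKM a longer peak holds more reads. The Control peaks of *PRSS23* had 1049 bases, against a median of 300 in Control 1 and 318 in Control 2. These shares describe a readout that was in view when the genes were chosen.

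The long peak was not rich in GGAC. It held 3 in 1049 to 1257 bases, and 81.0% to 87.0% of peaks of like length had as many or more. Of the 3, 2 are at or near the ends of the stretch at chr11:86518881-86519120, which is shown to place them on the coding strand:

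PRSS23 coding part: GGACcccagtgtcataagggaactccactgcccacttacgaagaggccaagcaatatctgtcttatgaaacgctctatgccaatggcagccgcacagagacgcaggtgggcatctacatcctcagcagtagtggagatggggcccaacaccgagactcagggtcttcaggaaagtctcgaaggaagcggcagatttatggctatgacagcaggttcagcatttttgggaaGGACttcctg

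*SERPINE2* (chromosome 2, minus strand, 224839762 to 224904035) had no peak in any list. Of 2470 genes within 2-fold of its mean of 38.1 FPKM, 14.2% likewise had none and 71.8% had a peak in all 4 lists. Its mRNA of 2226 bases held 2 GGAC, both in the CDS, or 0.898 per kb. That was the lowest of the 4 genes, against 1.89 per kb for *PRSS23*, 3.41 for *PLAU* and 5.85 for *PLAUR*. The density was not computed for other mRNAs, and whether it relates to the missing peak was not tested. A gene without a peak is one in which none was called at the unknown depth of these libraries, not one shown to lack m6A.

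The remaining 3 regions of *PRSS23* lay far downstream on the chromosome, in exons of longer annotated transcripts, where no coding bases of *PRSS23* are annotated. There the gene overlaps *FZD4*, which encodes a Wnt receptor and lies on the minus strand (86656721 to 86666437). The region found only in both Control lists was here, at chr11:86662449-86662628, with p 0.00052 in Control 1 and 7.2e-05 in Control 2. All 180 of its bases were also coding bases of *FZD4*, and it held no GGAC on the strand of *PRSS23*.

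Peaks named *FZD4* lay at the same place. A minus-strand region at chr11:86662434-86662613 was also found only in both Control lists, with p 0.00098 and 0.00025, and shared 91 and 165 bases with the peaks named *PRSS23* in Control 1 and Control 2. On that strand there was 1 GGAC in the shared bases, at position 86662525:

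FZD4 site: caaaaggatgGGACaaagacagaca

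*FZD4* also had a region found only in both *F. nucleatum* lists (p 0.00014 and 2.3e-07), in its 3′UTR at 86656837 to 86657106, where no peak named *PRSS23* lay. In *F. nucleatum* 2 alone there was a further *FZD4* peak at 86662254 to 86662404 (p 0.00035), close to the region found only in Control.

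The other distal regions of *PRSS23* were a peak of 61 bases in Control 2 (86663107 to 86663167, p 0.0056) and a region at 86663317 to 86663556 with peaks in Control 1 (p 0.00052), Control 2 (p 0.0014) and *F. nucleatum* 1 (p 0.00071). The first lay wholly, and the second by 81.7% of its bases, on coding bases of *FZD4*. The Control 1 and Control 2 peaks of the second region did not overlap, so no base was common to its 3 peaks. All 3 peaks of the second region shared 47 to 120 bases with a peak named *FZD4* in the same list. Over all genes, 4% to 4.34% of the peaks of a list shared bases with a peak on the other strand.

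*FZD4* mRNA was at 0.968, 0.918, 1.23 and 1.04 FPKM, above *PRSS23* in both Control libraries and below it in both treated libraries. It did not pass the test (log2 difference 0.13, limma adjusted p 0.590). Whether the libraries or the counting kept the strand is not given in the sources used here, and without strand, reads of *PRSS23* and *FZD4* in these exons cannot be told apart. The canonical *PRSS23* transcript, which carries the strong CDS region, ends at 86522275 and does not reach them.

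**Figure D2:**
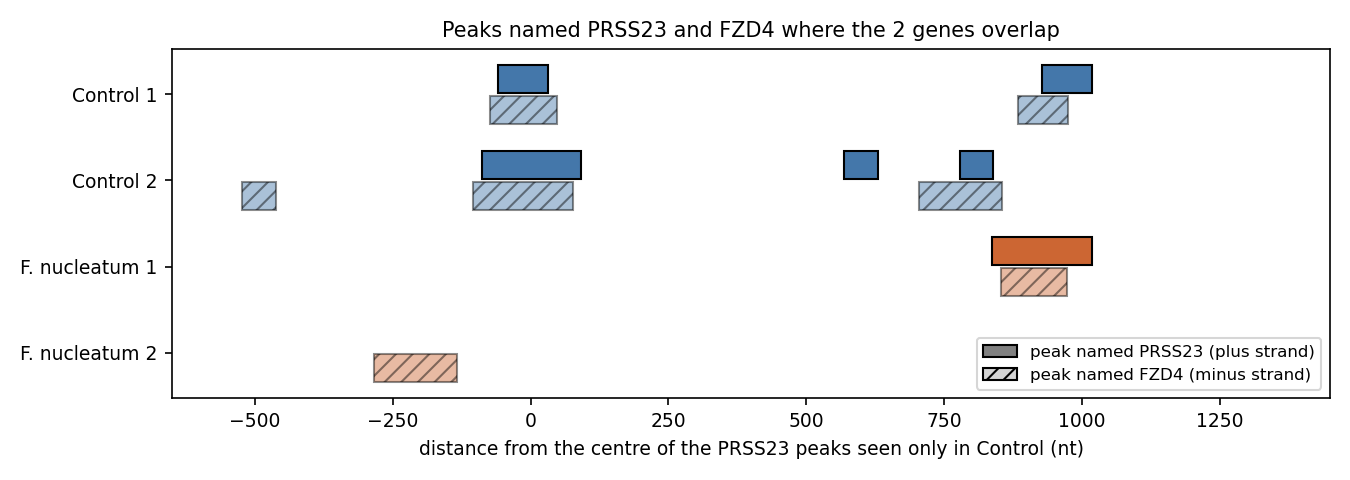
Peaks named *PRSS23* (solid) and *FZD4* (hatched) in each list, by distance in nt from the centre of the *PRSS23* region found only in Control; the far block of a spliced *FZD4* peak in Control 1 and a more distant pair of *FZD4* peaks are not drawn. At 0 both Control lists have a peak of each name and neither *F. nucleatum* list has one, though *F. nucleatum* 2 has an *FZD4* peak close by.

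*PLAU* has a smaller overlap of the same kind. *C10orf55*, an antisense long non-coding RNA on the minus strand, had a peak in every list (p 6.3e-27, 4e-19, 7.9e-71 and 1.3e-42 in the order given above), of which 95 bases lay within the *PLAU* region. Its level was 0.375, 0.260, 1.30 and 1.36 FPKM, higher in both treated libraries, as for *PLAU*, and its mean was too low for the test. The share of this RNA that comes from reads of *PLAU* was not tested. The antisense peak covered at most 15.8% of the bases of a *PLAU* peak.

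Among the direct partners, *PLAT* and *S100A10* had a peak in all 4 lists and *ANXA2* in 3, while *PLG*, *SERPINB2* and *LRP1* had none.

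The 250 bases before their annotated starts were searched on both strands for 4 motifs: TGANTCA (AP-1), GGGNNTTCC (NF-κB), GGAATG (the TEAD partners of YAP) and CACGTG (the E-box). The windows were those of RefSeq on GRCh38.p14, which held 7 for the 4 genes. Over all 35116 windows, 6.57% held TGANTCA, 5.78% GGGNNTTCC, 11.9% GGAATG and 6.34% CACGTG. *PLAUR* had a TGANTCA 186 bases before its start (chr19:43670170-43670419, minus strand), shown in capitals:

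PLAUR promoter: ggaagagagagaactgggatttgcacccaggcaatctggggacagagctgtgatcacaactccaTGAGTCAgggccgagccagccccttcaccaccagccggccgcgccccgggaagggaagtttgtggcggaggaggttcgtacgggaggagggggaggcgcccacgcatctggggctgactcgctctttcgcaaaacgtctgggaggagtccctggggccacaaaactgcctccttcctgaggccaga

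One of 2 windows of *PRSS23* (chr11:86790821-86791070, plus strand) had a GGGNNTTCC on the other strand, 72 bases before the start and in capitals here:

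PRSS23 promoter: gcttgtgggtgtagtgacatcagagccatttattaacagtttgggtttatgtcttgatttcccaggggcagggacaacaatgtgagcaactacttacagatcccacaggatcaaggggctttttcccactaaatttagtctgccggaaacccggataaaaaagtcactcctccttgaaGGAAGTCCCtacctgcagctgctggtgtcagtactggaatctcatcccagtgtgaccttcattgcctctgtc

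The other window of *PRSS23* (chr11:86800292-86800541), downstream of the one shown, held none of the 4. One of 2 windows of *SERPINE2* held CACGTG, 87 bases before the start, and its other window held none of the 4. Which window belongs to the canonical transcript of *PRSS23* or *SERPINE2* was not determined. The 2 windows of *PLAU* held none of the 4. GGAATG was in none of the 7. A match is a run of letters, not a site shown to be bound, and a window without a match says nothing about a factor.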

How the data were processed

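m6A-seq of HCT116 cells, 8 samples, was analysed from the authors' processed files. Per the study's methods and processing notes, reads were trimmed (Trim Galore 0.3.3) and aligned to hg19 with HISAT2 2.1.0, and StringTie gave the FPKM of genes in the 4 input libraries. The authors deposited FPKM per gene, and a peak list per replicate whose score was a p-value of IP against input. MACS2 is named for the peaks, but the layout of exon blocks is that of another kind of caller, so which program gave the deposited p-value is unsettled. Pull-down signal and read counts per peak were not analysed here. Depth was unknown, so no counting interval is given.

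Groups came from the sample titles. DESeq2 is named for expression in the methods, but FPKM are not counts, so limma 3.58.1 (R 4.3.3, eBayes with trend) was fitted to log2(FPKM + 1) over genes whose mean reached 1 FPKM, with Benjamini-Hochberg adjusted p-values and a threshold of 0.05. Fold changes on this scale understate those of low genes. The fit was tested on simulated data. Replicates are 2 per treatment, and how separately the cultures were grown is not given in the sources used here. The p-values therefore judge the treatment difference against the spread between these libraries, which may differ from that between separate cultures. No 2 libraries were identical.

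Peaks were annotated with GENCODE 44 on GRCh37. Starts in the peak lists count from 0: 97.9% of 39801 inner block starts then fell on an exon start, against 0.304% if from 1. GGAC was counted on the peak's strand. Promoter windows were matched by symbol for all 4 genes (RefSeq, GRCh38.p14), and no coordinate was converted between builds.

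The 4 genes and all lists were chosen with earlier results of these data known. Named beside the 4 were fixed partners (*PLAT*, *SERPINB2*, *PLG*, *ANXA2*, *S100A10*, *LRP1*), in each list every gene past the threshold and the 2 with the largest absolute difference, the 3 nearest patterns, and overlapping genes. An item of these lists is not reported here and was left out of the list counts. Alternatives tried were another pseudocount, no filter, quantile or median scaling, limma without trend, a replicate block, a GC correction, a stricter peak p-value, 50% reciprocal overlap and leaving out each replicate.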

Additional observations from a re-analysis of the deposited data

How the results depend on the processing

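The log2 differences of *PLAU*, *PLAUR* and *SERPINE2* moved by less than the spread between replicates in all 11 alternatives. That of *PRSS23* did so in 10, with 1.83 at a pseudocount of 0.1. For leaving out a replicate this was fixed in advance, since with 2 replicates the shift cannot exceed that spread. Leaving out each replicate gave 1.55 to 1.67 for *PLAU*, 0.86 to 0.92 for *PLAUR*, 0.21 to 0.79 for *SERPINE2* and 1.04 to 1.24 for *PRSS23*. No counted gene of the plasminogen, serpin, serine protease, matrix protease and uPAR domain lists was called in limma under any of the 11 alternatives. The uPAR partner list had 0 to 1 calls without one replicate, with *ITGB1* (log2 difference 0.47, limma adjusted p 0.0292, named after its value was seen) called without Control 2. Calls over all genes were 89, against 40 with no filter, which tested 15695 genes, and 16 to 284 without one replicate. The lowest came without *F. nucleatum* 2, and the others were 172 without Control 1, 284 without Control 2 and 24 without *F. nucleatum* 1. The all-gene median log2 difference stayed between -0.010 and 0.019. The replicate block gave 75 higher and 15 lower genes against 74 and 15 and changed no list call. The numbers were not taken as pairs (correlation of deviations 0.024 for Control 1 and *F. nucleatum* 1). With 2 replicates the other pair repeats this value and adds nothing to it. At a peak p-value of at most 1e-05 the region of *PRSS23* found only in Control was gone, leaving 0 private regions among the 4 genes and 652 over all genes, against 1 and 1105. With 50% reciprocal overlap 2 regions of the 4 genes were in every list, against 3, and 1 was private, with 1633 private over all genes. Without one replicate there were 1 to 2 and 3176 to 3348, since fewer lists had to be matched, and 3 to 5 regions of the 4 genes were in every list left. The second private region was the 5′ region of *PLAUR* without *F. nucleatum* 1, and the 61-base peak of *PRSS23* without Control 1. Low levels limit *PRSS23* most, as both Control libraries were under 1 FPKM at an unknown depth.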
